A study of Homo sapiens with 6 samples.

Results

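Genes of 6 solute carrier families, which move zinc, nucleotide sugars and vitamins across membranes, were examined for m1G (N1-methylguanosine) enrichment in PANC-1 cells. They were the protein-coding genes of the human assembly GRCh38 whose symbol starts with SLC30A, SLC39A, SLC35, SLC19A, SLC52A or SLC66A, 65 genes of 20050. One of them, SLC30A4-AS1, lies antisense to SLC30A4 and is no transporter by its name, and it had no peak. The families were chosen by their function and by the high MACS2 summit scores of SLC52A2 and SLC66A2, which were known, so the peaks of these genes are described here and not tested.

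PANC-1 is a human cell line from a pancreatic ductal adenocarcinoma, in long use. The cells were reverse transfected with siRNA, and TRMT5, the enzyme that places m1G beside the anticodon of tRNAs, was depleted for 4 days in one condition. Fragmented polyA+ RNA was precipitated with an antibody against m1G. Control cells, labelled WT control, gave 1 input library and 2 precipitates, and TRMT5-depleted cells gave 1 input library and 2 precipitates. The labels give all 6 libraries the same batch. Whether the 2 precipitates of a condition were separate cultures is not in the labels.

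The values come from peak lists of the whole series, which name no library and no condition. A MeTDiff peak carries a fold enrichment of precipitate over input and a false discovery rate (FDR). A MACS2 summit is a single base with a score, the −log10 of a significance value, p or q. Folds, FDR values and scores are the authors' own, 1 value per peak over the pooled libraries, without replicate error. The depth of the libraries is unknown, and the effect of TRMT5 depletion on these genes was not analysed here. Of 7 ductal and epithelial genes that mark such a line, 6 had a MeTDiff peak (KRT8, KRT18, KRT19, EPCAM, MUC1 and SOX9, but not KRT7). None of 5 acinar and none of 5 islet markers had one. Of 5 stromal and blood markers, COL1A1 and CD68 had one. Over all protein-coding genes the share with a MeTDiff peak was 36.9%. These marker counts are listed only and are no check of which cells were used.

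Zinc is held at very low free levels in the cytosol. Most members of the SLC30A family (ZnT proteins) move it out of the cytosol, to organelles or out of the cell. Members of the SLC39A family (ZIP proteins) move zinc in. Many SLC35 proteins, but not all, carry nucleotide sugars and related nucleotides from the cytosol into the Golgi apparatus and the endoplasmic reticulum, where glycosyltransferases use them. SLC19A proteins import folate and thiamine, SLC52A proteins import riboflavin, and SLC66A proteins have PQ-loop repeats and include a lysosomal amino acid exporter. SLC66A proteins are therefore not all vitamin carriers.

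Summits at the very start of a gene could be read against the promoter table of RefSeq (GRCh38.p14), which ends 50 bases into the gene. The table holds 49 of the 65 genes, and in 4 of them a summit fell in that window. The sequences below run 5′ to 3′ on the strand of the gene, with 14 bases on each side of the summit, and show what lies under summits at the start of a gene. The capital marks the summit base.
SLC35F5, chr2:113756599-113756627, minus strand: cgcggccatagctgActgtgccgtccctt
SLC30A5, chr5:69094030-69094058, plus strand: cttcccgggaacctGgcgccgccggaact
SLC19A2, chr1:169485921-169485949, minus strand: accctagaggcgtcTgtagggtaaagctg
SLC66A3, chr2:11155462-11155490, plus strand: gcggaaggcttcggCagagctgcgccgcc
Counted from the first base of the gene, these summits were at base 30 in SLC35F5, 31 in SLC30A5, 36 in SLC19A2 and 10 in SLC66A3, with scores of 42.5, 28.2, 26.8 and 16.9. The summit base was a G in 1 of the 4. Within the 29 bases, 8 were G in SLC35F5, 9 in SLC30A5, 10 in SLC19A2 and 12 in SLC66A3. The SLC66A3 sequence begins before the first base of the gene. Among 763 summits of the whole list that fell in any promoter window with a single strand and base, the summit base was a G in 38.9%, and 39.5% of the bases around these summits were G. The summit base was thus about as often a G as its surroundings in these windows. The windows also cover bases before the gene, and they were read on the strand of the gene though summits carry no strand. Sequences under SLC52A2 and SLC66A2 are not shown.

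Of the 65 genes, 34 had a MeTDiff peak on their strand (52.3%), where 36.9% of all protein-coding genes had one. For 7 of the 34 the strand itself was taken from their peaks, a rule used alike for all genes without a tabulated strand. With peaks of either strand counted, 35 of the 65 genes had one. A MACS2 summit lay in the span of 21 (32.3%), against 18.0% of all protein-coding genes. All 21 were among the 34, so that the share with a peak in both lists was 32.3% as well, against 16.8% of all protein-coding genes. Of the genes with a MeTDiff peak, 61.8% also had a summit here, and 45.4% did over the genome. The share with a peak was higher in these families than over all genes, and no test was made of it, since the families were chosen with results known. The files hold no expression values, and how many of the 31 genes without a peak are transcribed in PANC-1 cells is unknown.

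**Figure D1:**
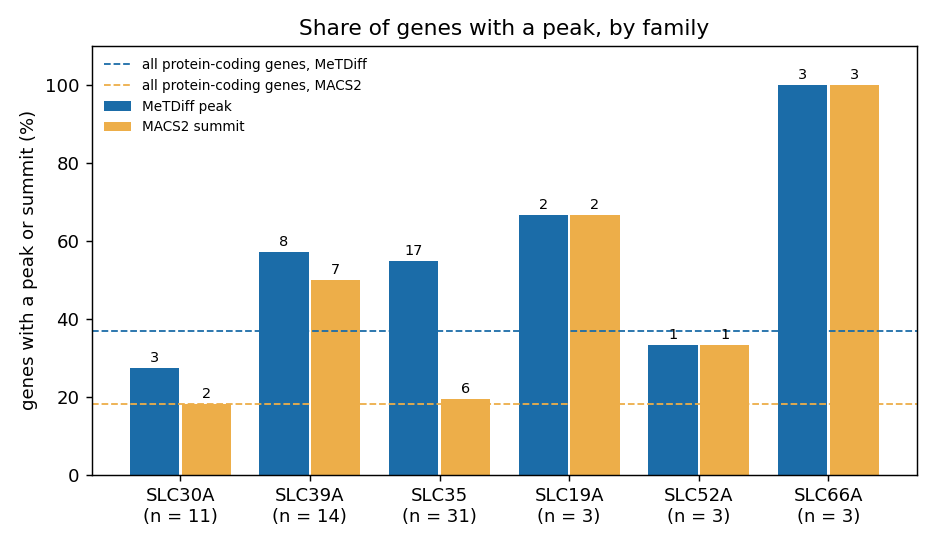
Percent of the genes of each family with a MeTDiff peak (blue) or a MACS2 summit (orange); numbers over the bars are genes, and dashed lines give the share over all protein-coding genes (36.9% and 18.0%). The 3 SLC66A genes all had both, while SLC30A lay below the MeTDiff line with 3 of 11 genes.

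The families differed in how many members had a peak. In SLC66A all 3 genes had a MeTDiff peak and a summit, and in SLC19A 2 of 3 had both. SLC39A had 8 of 14 genes with a MeTDiff peak (57.1%) and 7 with a summit (50.0%). SLC35 had 17 of 31 with a MeTDiff peak (54.8%) but 6 with a summit (19.4%), close to the share of all genes. SLC30A had 3 of 11 (27.3%) and 2 of 11 (18.2%), and SLC52A 1 of 3 in each list. SLC39A genes thus had a peak more often than SLC30A genes, with 8 of 14 against 3 of 10 transporter genes. This difference was not tested.

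The 34 genes held 80 MeTDiff peaks, from 1 peak in each of 14 genes to 7 in SLC19A1. The median fold was 3.88, from 1.41 to 47.0, where all peaks on protein-coding genes had a median of 4.2. Taking the strongest peak of each gene, the median was 8.09 here and 6.0 over all genes with a peak, and 12 of the 34 genes reached 10-fold or more (35.3%), against 24.5% of all genes with a peak. Their 36 summits had a median score of 17.9, from 3.56 to 105, against 16.4 over all genes. Taking the highest summit of each gene, the median score was 16.9 here and 18.9 over all genes with a summit.

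**Figure D2:**
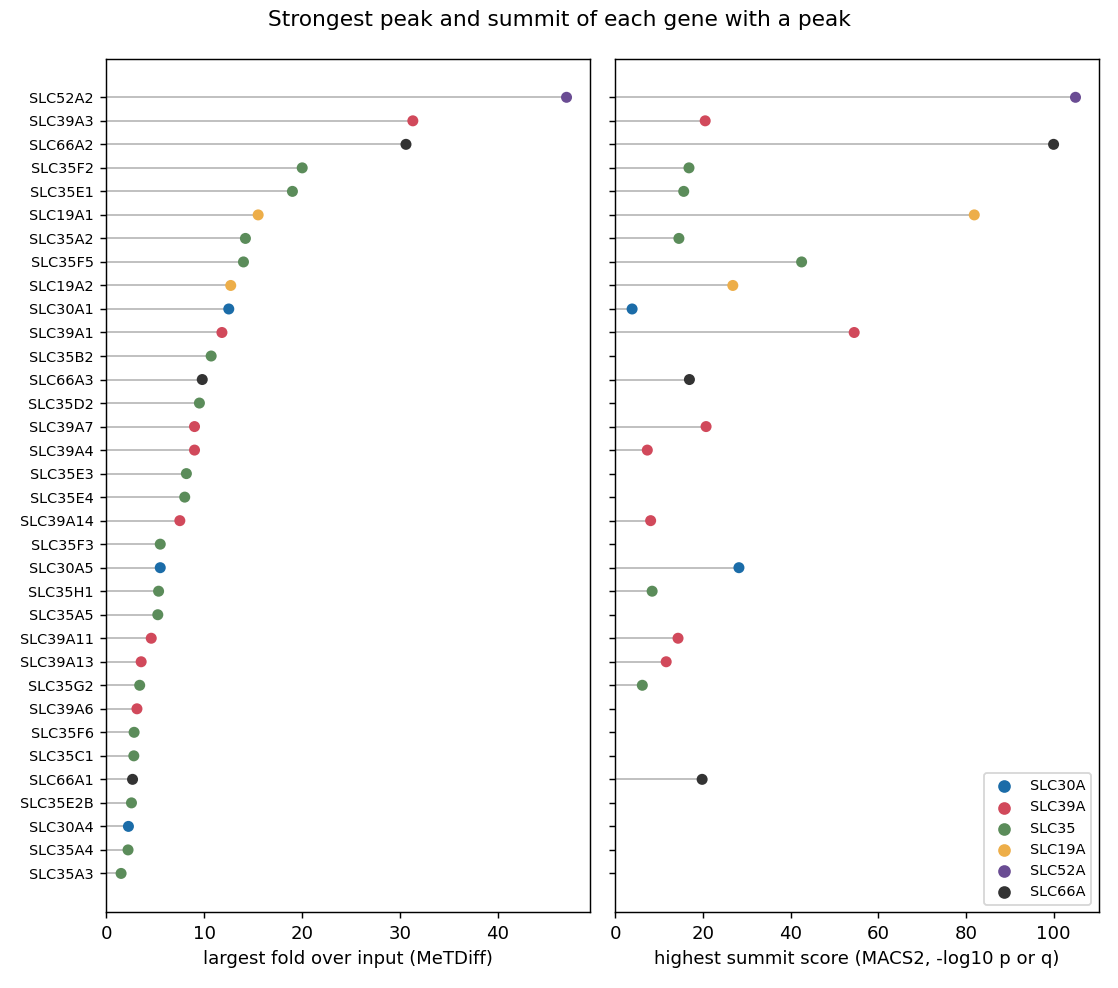
Largest fold over input (left, MeTDiff) and highest summit score (right, MACS2) of each of the 34 genes with a peak, ordered by fold and coloured by family; no point on the right means no summit. SLC52A2 leads both panels, at 47.0-fold and a score of 105, SLC39A3 (31.3-fold) and SLC66A2 (30.6-fold) follow in fold, and SLC66A2 (100.1) and SLC19A1 (81.9) follow in score. The 31.3-fold peak of SLC39A3 belongs to another gene ID, and its main ID reaches 23.9-fold.

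SLC52A2, one of the riboflavin importers, held the strongest peak and the strongest summit of these genes. Its span covers 2.72 kb (chromosome 8, 144358552 to 144361272). The leading peak, at 144358616 to 144358863, had a fold of 47.0 (FDR 0.00025), the 26th largest among the 7394 protein-coding genes with a peak when each gene is taken by its strongest. The summit at 144358627 inside it scored 105, the 4th highest among 3611 genes with a summit, and lay 75 bp from the 5′ end of the gene. These ranks describe the values that made the gene stand out and are not support for it.

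Further along SLC52A2, a peak of 2 blocks with a fold of 10.6 (FDR 0.00031) began at 144359209, and another of 2 blocks with a fold of 11.7 (FDR 0.03) began at 144360590. Summits of 19.7, 42.0 and 10.9 accompanied them at 144359150, 144359607 and 144360715, each outside the blocks by 59, 16 and 2 bp. Signal therefore lay at the start, the middle and the later part of this short gene, with fold and score highest at its start. A peak of another gene ID on the minus strand, at 144358628 to 144358826 with a fold of 36.1, lay wholly inside the leading peak, and the summit was 1 bp outside it. Summits carry no strand, so the score of 105 cannot be given to either strand. Whether the folds were counted by strand is not given, so the fold of 47.0 cannot be given to SLC52A2 alone either. The plus strand of SLC52A2 was itself taken from the peaks in its span. The other riboflavin importers, SLC52A1 and SLC52A3, had no peak in either list.

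SLC66A2, which encodes a PQ-loop membrane protein, had 3 peaks and 3 summits (chromosome 18, 79902420 to 79951653, minus strand). Its leading peak joined a block of 77 bases at the 5′ end of the gene (79951581 to 79951657) and a block of 222 bases at 79950804 to 79951025, with a fold of 30.6 (FDR 6.2e-05), the 121st largest among genes. The summit at 79951023 scored 100.1, the 7th highest among genes, and lay 630 bp from the 5′ end, just inside the longer block. A summit of 22.4 lay at 79951557, 24 bp outside the first block. The enrichment at the start of SLC66A2 thus spanned a junction, and no peak of another ID lay in the span of this gene on the other strand.

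Near the 3′ end of SLC66A2, peaks of 6.96-fold and 3.28-fold (each FDR 0.00023) lay at 79903762 to 79904060 and at 79903414 to 79903612. A summit at 79904051 inside the first of these scored 25.7. As in SLC52A2, the fold at the start of the gene exceeded those farther along, here with 30.6 against 6.96.

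**Figure D3:**
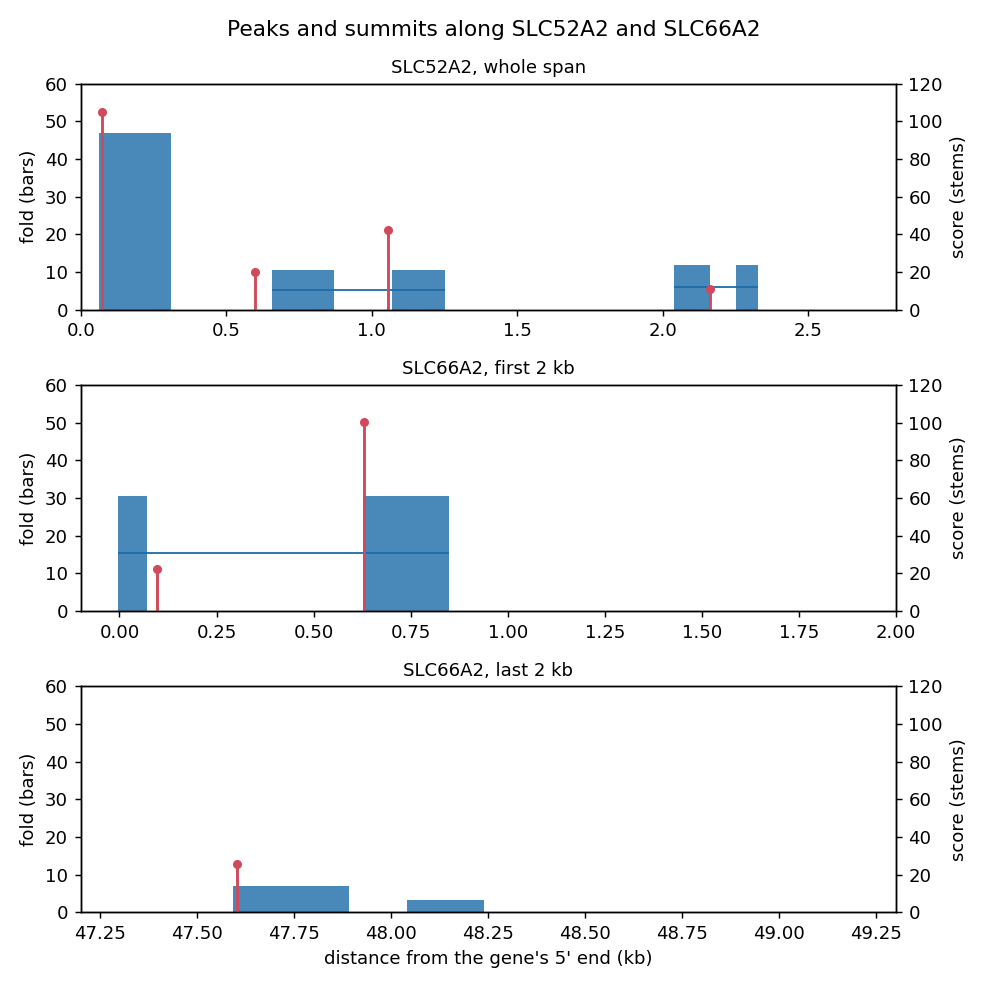
MeTDiff peaks (blue bars, height is fold on the left axis, blocks of a spliced peak joined by a line) and MACS2 summits (red stems, score on the right axis) against distance from the 5′ end of the gene in kb, for SLC52A2 and for the first and last 2 kb of SLC66A2. In both genes the tallest bar (47.0-fold and 30.6-fold) and the tallest stem (105 and 100.1) lie in the first kb.

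The remaining SLC66A genes had weaker peaks. SLC66A1, the lysosomal exporter of cationic amino acids, had peaks of 2.62-fold and 2.67-fold (FDR 0.019 and 0.0029) in its interior, while its only summit, with a score of 19.8, was 320 bp from the 5′ end and 5036 bp from the nearest peak. SLC66A3 had a 4.50-fold peak at its 5′ end (FDR 0.00054), with the summit of 16.9 shown above inside it, and a 9.79-fold peak 579 bp from its 3′ end (FDR 0.00083).

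The folate carrier SLC19A1 had the third highest score, but most of its summits cannot be separated from the gene COL18A1 on the other strand. SLC19A1 lies on the minus strand of chromosome 21 (45502517 to 45563025), and 6 peaks of another ID on the plus strand fall in its span. Of its 6 summits, the highest, 81.9 at 45512198, was inside a block of such a plus-strand peak and 164 bp from the nearest SLC19A1 block. The next, 63.2 at 45509334, was 22 bp from a plus-strand block and 3028 bp from an SLC19A1 block. Summits of 31.9, 27.1 and 14.8 were also nearer to plus-strand blocks, at 98, 44 and 114 bp, than to SLC19A1 blocks, at 197, 1670 and 130 bp. Only the summit of 5.34 at 45513189 fell in a block of SLC19A1, and it fell in a plus-strand block too.

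The 7 MeTDiff peaks on the strand of SLC19A1 ranged from 1.41-fold to 15.5-fold. Those of 1.41-fold, 3.16-fold and 3.28-fold overlapped plus-strand peaks. The strongest, at 45514138 to 45514537 (FDR 0.00059), covered 400 bases, overlapped no plus-strand peak and contained no summit. SLC19A2, a thiamine importer, had 1 peak of 12.7-fold at its 5′ end (chromosome 1, 169485696 to 169485944, FDR 0.00021), and its summit of 26.8 lay inside. SLC19A3, another thiamine importer, had no peak. In this family the 5′ peak of SLC19A2 was the one that both lists placed alike without a gene on the other strand.

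Among the zinc importers, SLC39A3 and SLC39A1, which act at the plasma membrane, led. In SLC39A3 (chromosome 19, 2732524 to 2740076, minus strand) a peak of 31.3-fold joined blocks at 2737335 to 2737379 and 2739945 to 2739999 (FDR 1e-13). It belonged to another gene ID than the remaining 5 peaks of the span, and shared the place of its block nearest the 5′ end with a 23.9-fold peak of the main ID (FDR 0.001), while a 20.5-fold peak at 2737309 to 2737409 (FDR 0.014) overlapped the other block. The 31.3-fold row thus shares bases with both of the others and is no further site, while the 23.9-fold and 20.5-fold peaks share no base with each other. The 3 peaks towards the 3′ end had folds of 3.50, 1.91 and 1.80, and the only summit, 20.5 at 2737454, lay 45 bp from the 20.5-fold peak.

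SLC39A1 had the highest score of the zinc genes, 54.5 at 153962759 on chromosome 1, inside a peak of 11.8-fold (153962307 to 153962784, FDR 5e-05). An 11.1-fold peak of another ID (FDR 0.013) covered nearly the same bases. Peaks of 2.8-fold and 3.75-fold (each FDR 5e-05) followed towards the 3′ end, with a second summit of 11.6. The strong site of SLC39A1 was in the interior of the gene, 5425 bp from its 5′ end.

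SLC39A7, which releases zinc from the endoplasmic reticulum, had peaks of 9.0-fold, 8.26-fold and 4.07-fold from its 5′ to its 3′ end, with summits of 18.8 and 20.7. SLC39A4, the intestinal zinc importer, had 6 peaks along its 4.43 kb, with folds of 2.25, 4.50, 9.0, 6.50, 4.67 and 2.81 from the 5′ to the 3′ end. The first 4 of these peaks also lie in the span of LOC124902041, a noncoding RNA gene of unknown strand here, and without them the largest fold of SLC39A4 is 4.67. Its 3 summits had low scores, from 3.56 to 7.29. SLC39A14, a carrier of zinc, iron and manganese, had a 7.5-fold peak at its 5′ end and a summit of 8.05. SLC39A11 had a 4.58-fold peak and a summit of 14.3 near the start of a span of 447 kb, the peak 3969 bp from the 5′ end. SLC39A13 had 6 peaks from 2.10-fold to 3.55-fold and a summit of 11.6. SLC39A6 had peaks of 3.12-fold and 2.47-fold and no summit.

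Among the zinc exporters, SLC30A1, the main exporter of the plasma membrane, had a 12.5-fold peak 300 bp from its 5′ end (chromosome 1, 211578811 to 211578911, FDR 0.002) and a 3.75-fold peak beside it (FDR 0.014). Its summit scored 3.82, one of the lowest of these genes, and lay 78 bp outside the 12.5-fold peak. SLC30A5, which loads the early secretory pathway with zinc, had a 5.50-fold peak over its 5′ end (FDR 0.00015) with the summit of 28.2 inside. SLC30A4 had 1 peak of 2.25-fold (FDR 0.004), which also lies in another gene span on the same or an unknown strand, and no summit. In all 3 exporters with a peak the strongest was at the 5′ end (midpoint 500 bp or less from it). SLC30A5 and SLC30A4 had no other peak. Of 16 genes of zinc storage and sensing, among them MTF1 and the metallothionein genes, none had a MeTDiff peak or a summit, against 36.9% and 18.0% of all protein-coding genes. These genes are short, with a median span of 1.49 kb where all protein-coding genes have 24.1 kb, and the part of length in this count was not tested.

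In the SLC35 family, 7 of 14 genes of subfamilies SLC35A to SLC35D, most of them with known nucleotide sugar or sulphate donor substrates, had a MeTDiff peak, and 1 had a summit. Of 17 genes of subfamilies SLC35E to SLC35H, 10 had a peak and 5 a summit. SLC35A2, the UDP-galactose transporter, had peaks of 14.2-fold and 7.78-fold in the later part of the gene (FDR 0.0083 and 0.0063), and its summit of 14.5 lay 20 bp from the stronger. SLC35B2, which carries the sulphate donor PAPS into the Golgi apparatus, had folds of 10.7, 8.86 and 1.77 from its 5′ to its 3′ end and no summit. SLC35D2, a nucleotide sugar transporter, had a 9.50-fold peak at its 5′ end (FDR 0.017) and no summit. This peak, its only one, also lies in the span of the noncoding gene SLC35D2-HSD17B3 on the same strand.

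The 2 largest folds of the family were in the other subfamilies. SLC35F2 had a single peak of 20.0-fold (chromosome 11, 107792185 to 107792384, FDR 8.7e-05), 1293 bp from its 3′ end, with a summit of 16.8 inside. SLC35E1 had a 19.0-fold peak at its 5′ end (chromosome 19, 16572166 to 16572365, FDR 0.006) with a summit of 15.6 inside, and 2 overlapping peaks of 2.42-fold and 2.04-fold farther along. SLC35F5 had a 14-fold peak at its 5′ end (chromosome 2, 113756393 to 113756593, FDR 0.00014). Its summit of 42.5 lay 20 bp outside that peak, on the 5′ side. SLC35F2 differed from these in that its strong peak was near the far end of the gene.

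SLC35H1 had peaks of 5.33-fold and 2.69-fold, and its summit of 8.39 was 3359 bp from the nearer of them. SLC35G2 had a 3.40-fold peak at its 5′ end with a summit of 6.15 inside. The 11 SLC35 genes after the 6 with the largest folds had strongest peaks from 1.5-fold to 8.17-fold. SLC35A5 (5.25-fold) was the one among them whose peak overlapped a peak of the other strand, of 4.75-fold.

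The genes without a peak in either list were SLC30A2, SLC30A3, SLC30A6, SLC30A7, SLC30A8, SLC30A9, SLC30A10 and SLC30A4-AS1 among those named for zinc exporters, and SLC39A2, SLC39A5, SLC39A8, SLC39A9, SLC39A10 and SLC39A12 among the zinc importers. In the SLC35 family they were SLC35A1, SLC35B1, SLC35B3, SLC35B4, SLC35D1, SLC35D3, SLC35D4, SLC35F1, SLC35F4, SLC35G1, SLC35G3, SLC35G4, SLC35G5 and SLC35G6. SLC19A3, SLC52A1 and SLC52A3 complete them. SLC30A6, the partner of SLC30A5 in a zinc transporter complex, was thus without a peak while SLC30A5 had one.

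Genes that make or use the transported compounds were looked at beside the carriers. Of 27 genes of nucleotide sugar synthesis, 20 had a MeTDiff peak (74.1%) and 10 a summit (37.0%), against 36.9% and 18.0% of all protein-coding genes. The galactokinase gene GALK1 had the largest fold, 26.6, followed by GMPPB (19.7), which makes GDP-mannose, and GFUS (18), which makes GDP-fucose. Of 26 genes of folate, thiamine and riboflavin metabolism, 12 had a MeTDiff peak (46.2%) and 6 a summit (23.1%), beside the same 36.9% and 18.0%. The largest folds were in FPGS (24.2), which adds glutamates to folate, and the serine hydroxymethyltransferase genes SHMT2 (21.6) and SHMT1 (11.7). RFK, the riboflavin kinase gene, had a 9.0-fold peak.

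Of 48 mitochondrial carrier genes of the SLC25A family, 21 had a MeTDiff peak (43.8%) and 10 a summit (20.8%). Of 273 other solute carrier genes the shares were 33.0% and 16.1%. The strongest peak of a gene had a median of 8.45-fold among the SLC25A genes and 6.19-fold among the other solute carriers, beside 8.09-fold in the genes described here. These groups are given side by side without a test.

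The place of the peaks was not used in choosing the genes. Of the 80 peaks, 20 (25.0%) had their midpoint no more than 500 bp from the 5′ end, 55 (68.8%) lay in the interior and 5 (6.25%) within 500 bp of the 3′ end. Over all protein-coding genes the shares were 17.1%, 76.4% and 6.49%. The median fold was 8.59 at the 5′ end, 3.28 in the interior and 2.81 at the 3′ end, against 5.50, 4.00 and 3.75 over all genes. In 17 of the 34 genes (50.0%) the peak of largest fold was at the 5′ end, against 29.2% of all genes with a peak. Of the 36 summits, 12 lay at the 5′ end (33.3%) and none at the 3′ end, where all genes had 23.8% and 4.22%. Peaks of the same gene are not independent, and 7 of the 20 genes with several peaks had a deposited p-value shared by some of them. The 31.3-fold and 23.9-fold peaks of SLC39A3, both counted at the 5′ end, share bases.

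**Figure D4:**
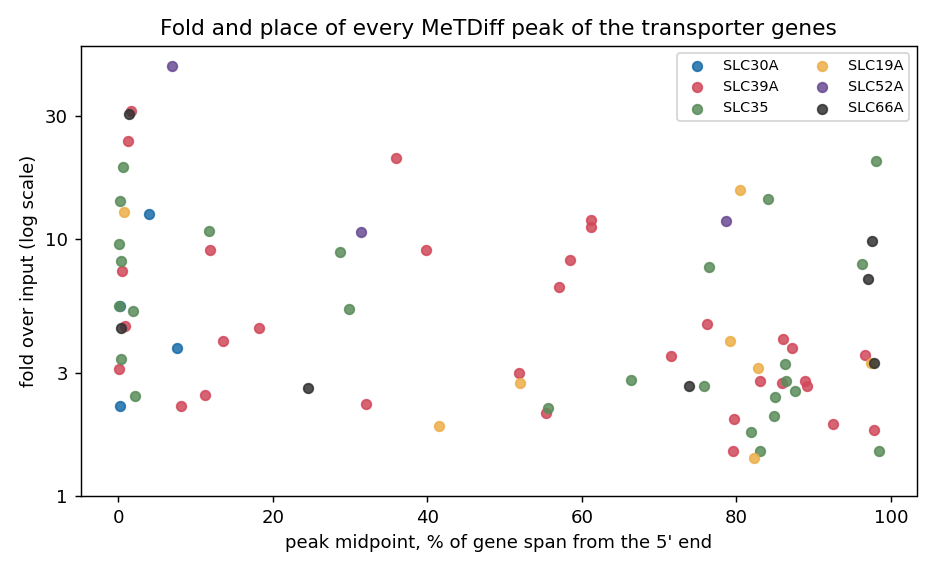
Fold over input (log scale) of each of the 80 MeTDiff peaks against the place of its midpoint, in percent of the gene span from the 5′ end, coloured by family. The peaks of SLC39A3 (31.3-fold), SLC66A2 (30.6-fold) and SLC52A2 (47.0-fold) lie near the 5′ end of their spans, and the 20.0-fold peak of SLC35F2 lies at 98.1%. The 31.3-fold peak belongs to another gene ID than the other peaks of SLC39A3.

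Many summits lay outside the blocks of the MeTDiff peaks of their gene but close to them. Of the 36 summits, 11 lay inside a block of a MeTDiff peak of their gene (30.6%, against 36.6% over all genes), which concerned 10 genes. With the gaps between blocks of a spliced peak counted as inside, 14 genes had such a summit. A further 18 lay outside but within 100 bp of a block, at a median distance of 22 bp. Of these 18, 14 were on the 5′ side of the nearest block in the direction of transcription (77.8%) and 4 on the 3′ side. The 4 on the 3′ side, in SLC39A14, SLC39A4, SLC52A2 and SLC66A2, each lay in a gap between blocks of a spliced peak. None of them was thus on the 3′ side of a whole peak. Some on the 5′ side lay in such gaps too, as in SLC35F5. Over all genes 2375 summits lay that near, 2090 of them on the 5′ side (88.0%), at a median distance of 41 bp. SLC39A7 (71 and 4 bp), SLC39A11 (87 bp) and SLC35A2 (20 bp) were examples on the 5′ side. In SLC39A14 the summit was 26 bp on the 3′ side of its nearest block, before the next block of the same peak. The shift thus held over both lists as a whole and was not particular to these genes. Its cause was not tested.

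**Figure D5:**
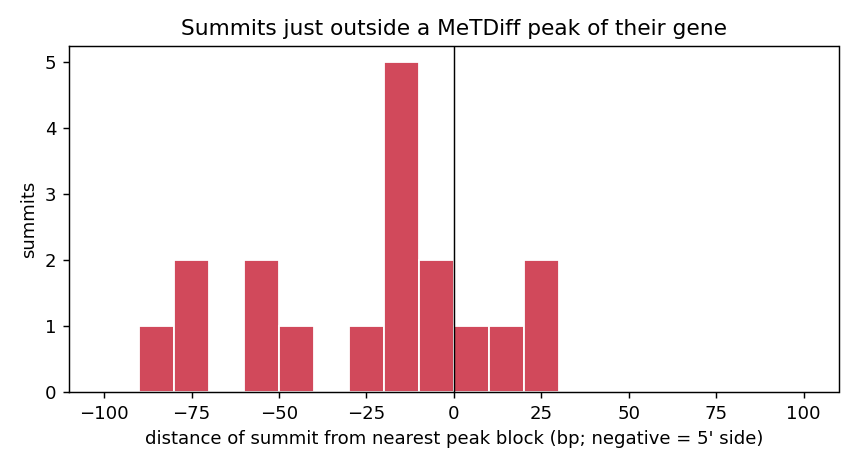
Number of summits, out of the 18 that lay outside but within 100 bp of a MeTDiff block of their gene, by distance from that block in bp (negative values are on the 5′ side of the block). There are 14 summits left of 0 and 4 right of it, and those 4 lay in gaps between blocks of a spliced peak.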

How the data were processed

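Both deposited files list peaks without naming libraries. The submitters' processing notes name STAR 2.7.1, MACS2 2.2.5, SAMtools, Picard, bedtools, featureCounts, edgeR, DESeq2 and ChIPseeker, with the build GRCh38. Their roles and settings, and how libraries were pooled, were not given in the sources used here. The deposited MACS2 list holds 6264 summits with a −log10 p-value or q-value, which of these is not stated. The deposited MeTDiff list holds 18431 peaks with a p-value, the log10 of the FDR, and a fold, the ratio of precipitate to input. Column order and values gave these meanings. The FDR did not follow the p-value alone. In SLC30A1, the 2 peaks had p-values alike to 2 digits and FDR values of 0.002 and 0.014.

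Gene spans came from the RefSeq table (GRCh38.p14), and strand from the RefSeq promoter table for 49 of the 65 genes. For 7 genes strand came from the Ensembl ID with most peaks among those wholly inside the span, a rule that gave the tabulated strand in 97.0% of 6122 genes. SLC52A2 and SLC66A2 were among these 7, and the rule always gives such a gene a peak on its strand. For 9 genes there was no strand, and their spans held 1 MeTDiff peak, in SLC35D4. A MeTDiff peak was given to a gene when it was on its strand and at least 50% of its bases lay in the span. A summit was given to each gene whose span held it. Peaks were placed by their midpoint. No statistical test was run on the genes or peaks. The assignment of peaks to genes was checked on simulated data.

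Genes and lists were chosen with earlier results of these data known. Values are given for every gene with a peak in families of up to 10 genes, and for the 6 largest folds and 6 highest scores in larger families. Up to 3 genes of each further list are named by fold. RFK, SLC39A6 and SLC35A5 were named beyond this rule after their values were seen. Transcript models and genome sequence were not used here. Python 3.11.15 and pandas 2.3.3 were used.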

Additional observations from a re-analysis of the deposited data

How the results depend on the processing

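Of 28 alternative settings, 23 left the value within 1.5 times the reported one. Counting only summits with a score above the median of the list reduced the genes with a summit from 21 to 12. Counting a summit within 100 bp of a block as shared raised the genes with a shared site from 10 to 19. The number of peaks at the 3′ end was 1 with a window of 250 bp and 10 with 1000 bp, against 5, and summits there rose from 0 to 2 with 1000 bp. With a fold above the median of the list, 24 of the 34 genes kept a MeTDiff peak, with an FDR of 0.01 or less 32 did, and without peaks shared with another gene span on the same or an unknown strand 31 did, all but SLC30A4, SLC35A4 and SLC35D2. Keeping only peaks of the main ID, and leaving out summits inside peaks of the other strand, were added after seeing the data and changed neither count (34 and 21). Neither count could change, so these settings are no check on signal of the other strand. Each gene with a peak has a main ID, and only 2 summits were left out. Both were in SLC19A1, which kept others that lay nearer to plus-strand blocks than to its own. No paired analysis was possible because the columns of the files carry no replicate, library or condition. Depth is unknown, so a gene without a peak may lack RNA, depth or m1G, and these cannot be told apart.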

Other observations

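In SLC39A1, the 11.8-fold peak and the 11.1-fold peak both ended a block at 153962350 and resumed at 153962529, and the hairpin of the microRNA gene MIR6737, at 153962351 to 153962420 on the same strand of chromosome 1, lay in the gap between these blocks.

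In SLC35D4, the only MeTDiff peak in the span was on the plus strand (chromosome 18, 23257736 to 23257885, 1.88-fold). The gene CABLES1, which overlaps SLC35D4, is on that strand in the RefSeq promoter table.

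A part of the folds lay on coarse steps: over the whole MeTDiff list, 38% of the folds under 10 were multiples of 0.25 within 0.005. The remaining folds under 10 were not. Among the values above, 3.75, 4.50, 5.50 and 9.0 are of this kind.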
